A study of Mus musculus with 30 samples.

Results

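Glucose and monocarboxylate transporters of the mouse hippocampus were followed in 9 genes, Slc2a1, Slc2a3, Slc2a6, Slc2a8 and Slc2a13 of the facilitative sugar transporter family and Slc16a1, Slc16a6, Slc16a7 and Slc16a11 of the monocarboxylate transporter family. They are 9 of the 17477 genes of the count table, and 9 of its 24 genes with an Slc2a or Slc16a symbol. The set was chosen by the measured levels of Slc2a6 in females and Slc16a11 in males, which were higher in socially isolated mice. Their isolation values are therefore given as a description, with no test, and support nothing. The other 7 members were tested.

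RNA-seq was run on whole hippocampus of 30 adult C57 BL/6J mice, with 1 library of poly-A selected RNA for each mouse. Socially isolated (SI) mice had lived alone in a cage since weaning, and group housed (GH) mice had shared a cage. There were 8 SI females, 7 GH females, 7 SI males and 8 GH males, with no other treatment and no engineered allele named in the labels. Replicates are separate mice, and the labels do not give their cages or litters.

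Libraries held from 18809307 to 100844898 counts, with a median of 41297502.5. The SI males 25, 33 and 39 stood apart from the other 12 males on the first principal component, which held 59.1% of the variance. In them log2 CPM, relative to each gene's mean over all males, fell by 0.33 to 0.43 per doubling of transcript length. Results in males are given with and without these 3 mice. The fit without them estimated its surrogate variables (fitted terms for unlabelled variation) anew, 4 against 2 with all males. Its shifts therefore also hold a change of model. All 10 markers of each of astrocytes, oligodendrocytes, microglia, endothelium, neurons and choroid plexus had counts in every group. This was counted over the libraries of a group together, and counts alone do not show which cells they came from. The summed level of the 10 choroid plexus markers ran from 45.03 to 5027 CPM (counts scaled to library size) between mice.

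Neurons and glia live mainly on glucose from the blood, and glucose crosses the vessel wall and the cell membrane through facilitative transporters of the Slc2a family, known as GLUTs. Part of it is passed on as lactate or pyruvate, which, like ketone bodies, moves together with a proton through Slc16a carriers, the MCTs. In bulk tissue a lower level can mean fewer cells of a type or less RNA per cell, and these cannot be told apart.

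The upstream sequences of Slc2a6 and Slc16a11, the genes the set was built on, and of Slc2a8, whose level moved with that of Slc16a11 from mouse to mouse, are shown from RefSeq, as the 250 bases before the annotated start on GRCm38.p6. Capitals mark GCGTG, a core of hypoxia response elements, GGGCGG, the core of Sp factor sites, and CCAAT, each read on both strands.
Slc2a6 (chr2:27027999-27028248, minus strand): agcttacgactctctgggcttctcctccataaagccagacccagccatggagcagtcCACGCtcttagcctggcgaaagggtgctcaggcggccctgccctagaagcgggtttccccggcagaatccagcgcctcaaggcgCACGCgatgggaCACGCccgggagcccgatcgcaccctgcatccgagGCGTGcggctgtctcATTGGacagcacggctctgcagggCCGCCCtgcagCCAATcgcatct
Slc16a11 (chr11:70213660-70213909, plus strand): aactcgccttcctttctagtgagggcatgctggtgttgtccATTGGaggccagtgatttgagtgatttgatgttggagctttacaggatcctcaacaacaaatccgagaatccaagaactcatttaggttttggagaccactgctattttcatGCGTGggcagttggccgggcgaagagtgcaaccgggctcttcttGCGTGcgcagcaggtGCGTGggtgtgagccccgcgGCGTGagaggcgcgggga
Slc2a8 (chr2:32982084-32982333, minus strand): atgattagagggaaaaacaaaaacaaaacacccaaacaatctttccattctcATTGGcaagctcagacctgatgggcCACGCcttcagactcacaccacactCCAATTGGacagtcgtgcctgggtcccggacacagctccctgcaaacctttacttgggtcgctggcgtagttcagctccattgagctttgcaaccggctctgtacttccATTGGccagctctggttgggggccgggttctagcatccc

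GCGTG was found 4 times before Slc2a6 and 4 times before Slc16a11, with 1 match before Slc2a8. At least 1 match is present in 28.2% of the 32851 promoters of the same length, and 4 or more in 0.846%. GC content was 65.2% with 20 CpG pairs before Slc2a6, 54.8% with 14 before Slc16a11 and 52.8% with 7 before Slc2a8. Medians over all promoters were 52.4% and 6, and the shares were not matched for base content. Slc2a8 held 4 CCAAT matches, of which 1 pair overlapped, Slc2a6 held 2 and Slc16a11 held 1. CCAAT is present in 33.8% of promoters, with 4 or more matches in 0.84%. GGGCGG occurred once before Slc2a6 and in neither of the other sequences shown, against 32.7% of promoters. ACGTG and its palindromic form CACGTG, the E-box that contains it, were also searched and had 0 matches in these 3 sequences, against 16.6% and 6.02% of promoters. Over the 6 members with an entry, Slc2a1, Slc2a6, Slc2a8, Slc2a13, Slc16a1 and Slc16a11, GCGTG was present in 5, GGGCGG in 4, CCAAT in 3, ACGTG in 2 and CACGTG in 1. The matches are letters in a window and were set beside no binding data. Slc2a3, Slc16a6 and Slc16a7 had no entry.

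The members differed widely in level. On the scale of CPM per kilobase of the longest annotated transcript, Slc2a1, the glucose carrier of brain endothelium and astrocytes, was highest, with a median over 30 mice of 35.004 (lowest 28.7, highest 44.4). Slc2a3, the neuronal glucose transporter, followed at 15.1 (10.8 to 20.2), and Slc2a13, a proton-coupled myo-inositol transporter of neurons, at 10.4 (6.495 to 14.2). These 3 levels kept their order in each of the 30 mice, and the ranges of Slc2a1 and Slc2a3 did not overlap. Slc16a1, the lactate carrier of endothelium and glia, at 8.72, Slc2a6, an intracellular hexose transporter, at 8.37, Slc2a8, another intracellular hexose transporter, at 7.57, and Slc16a11, a carrier linked to pyruvate transport, at 6.42, lay close together, and neighbours in this order overlapped. Slc16a7, the high-affinity lactate and pyruvate carrier of neurons, stood at 5.26. Slc16a6, a carrier known for ketone body export from liver cells, was the lowest member at 1.90 (1.26 to 3.20), below Slc16a7 in all 30 mice with no overlap of ranges.

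Among other genes of these families, Slc2a12 and Slc16a8 had medians of 2.21 and 1.95 CPM per kilobase, above Slc16a6 and below the other 8 members. Slc16a13 was at 1.81. With the mean in place of the longest transcript length Slc16a6, at 5.05, was above Slc2a12, at 4.03, and above Slc16a8. Slc2a4, the insulin-responsive glucose transporter, was at 0.408, and Slc16a5 at 0.290.

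**Figure D1:**
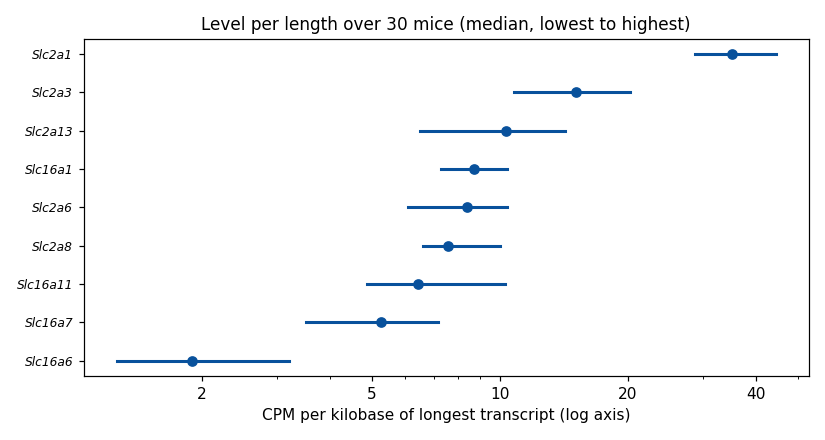
Level of the 9 members in CPM per kilobase of the longest transcript (log axis), with the median over 30 mice as a point and the lowest and highest mouse as the ends of the line. The medians run from Slc16a6 at 1.90 to Slc2a1 at 35.004.

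Slc2a6 (ENSMUSG00000036067, chromosome 2), which encodes GLUT6 of the lysosomal membrane, is known best from immune cells. In GH females it lay between 16.5 and 20.2 CPM (median 18.5), and in SI females between 20.6 and 24.6 (median 22.4). None of the 8 SI females was as low as the highest GH female, a pattern for which the gene was chosen and which 0.324% of genes tested in females showed in either direction. The fitted Log2FC was 0.27 (SE 0.0413), and it stayed between 0.22 and 0.31 under every alternative run, the removal of each female in turn included.

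Males had no such gap. GH males lay between 20.4 and 26.4 CPM (median 23.1) and SI males between 21.1 and 28.3 (median 25.5), and 3 of the 7 SI males exceeded every GH male. The fitted Log2FC was 0.076 (SE 0.0699). Of the SI males that stood apart, 2 of 3 exceeded every GH male, and without all 3 the Log2FC turned to -0.068 (SE 0.0541). It also turned without SI male 38 alone, a mouse that did not stand apart, to -0.030.

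The GH females were the low group for Slc2a6. All 8 GH males were above the highest GH female, with a fitted Log2FC of 0.31 (SE 0.0527). The gap was narrow, with the lowest GH male at 20.394 CPM and the highest GH female at 20.225. How many of all genes showed no overlap between GH males and GH females was not counted. The SI females, at 20.6 to 24.6 CPM, lay inside the range of the GH males. These values use the same GH females as the choice of the gene and are likewise a description. Microglial marker sums, 431 to 522 CPM in GH females and 396 to 521 in SI females, overlapped between these groups. Summed astrocyte markers ran from 4522 to 6260 CPM in GH and from 3842 to 5262 in SI females, and log2 CPM of Slc2a6 had a correlation of -0.45 with the mean log2 CPM of those 10 markers over the 30 mice after group means were subtracted. Their part in the Slc2a6 values was not tested.

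Slc16a11 (ENSMUSG00000040938, chromosome 11), which encodes MCT11, has been linked to lipid metabolism and diabetes risk in humans. In GH males it lay between 10.1 and 16.1 CPM (median 11.97) and in SI males between 12.7 and 19.96 (median 18.2). GH male 15 was the highest of its group, and 4 of 7 SI males exceeded it, while the other 7 GH males were at or below 12.4 CPM, under the lowest SI male. No overlap between SI and GH was found for 0.0758% of genes tested in males, and Slc16a11 was not among them.

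The fitted Log2FC in males was 0.43 (SE 0.086). SI males 25, 33 and 39 stood at 18.4, 18.2 and 18.6 CPM, above every GH male, while SI males 8, 7, 27 and 38 were at 12.7, 13.97, 14.8 and 19.96. Without the first 3 the Log2FC was 0.32 (SE 0.0857), and over all alternatives it lay between 0.32 and 0.50.

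In females Slc16a11 overlapped fully between housing groups. It ranged from 9.46 to 17.1 CPM in GH (median 12.04) and from 10.02 to 16.4 in SI (median 12.5), with a fitted Log2FC of 0.0084 (SE 0.114) that lay between -0.065 and 0.15 with single mice left out. Slc16a13, its neighbour on chromosome 11, had a Log2FC of 0.13 in males (SE 0.0956, adjusted p = 0.549 by edgeR) and of 0.074 in females (SE 0.0706, adjusted p = 0.613 by edgeR).

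**Figure D2:**
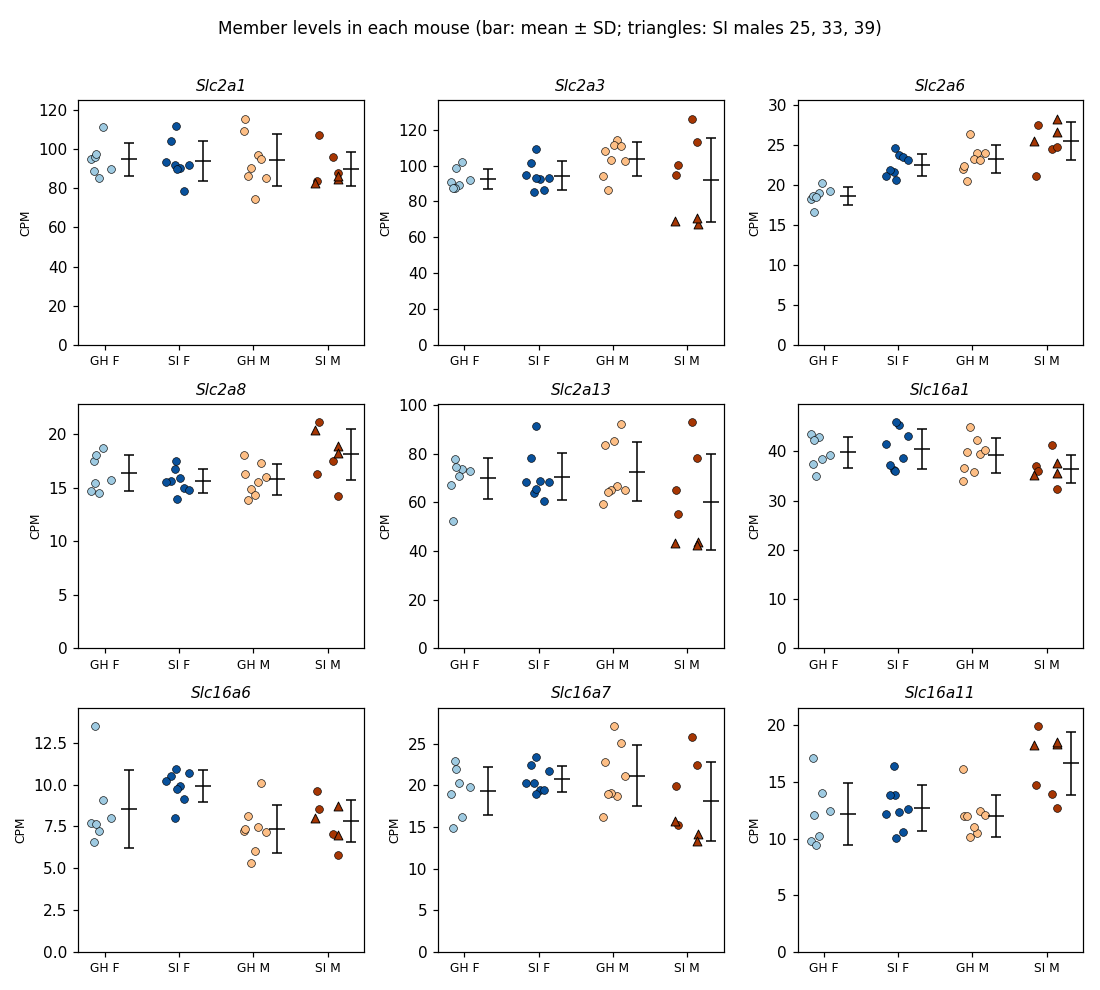
Level of each member in CPM (linear axis from 0) in every mouse of the 4 groups, with the mean and SD of the group beside the points, and SI males 25, 33 and 39 as triangles. The SI females lie above the GH females for Slc2a6, 4 of 7 SI males lie above all GH males for Slc16a11, and the triangles lie below all GH males for Slc2a3, Slc2a13 and Slc16a7.

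Of the 7 members the choice did not rest on, 0 were DEGs between SI and GH females, against 3.89% of the 16026 genes tested, of which 0.961% of genes were higher in SI. With DESeq2 and those surrogate variables it was also 0 of the 7. At an unadjusted p under 0.05 there were 2 of 7, Slc16a6 and Slc16a7, where 20.2% of all genes tested had one. The lowest adjusted p among the 7 was 0.153 by edgeR.

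Slc16a6 had the widest difference of these 7 in females. GH females lay between 6.54 and 13.5 CPM (median 7.67) and SI females between 8.0001 and 10.9 (median 10.1). The GH female 71, at 13.5 CPM, was above every SI female, while 5 of the other 6 GH females were at or below 7.99, under the lowest SI female. The fitted Log2FC was 0.19 (SE 0.0728, adjusted p = 0.153 by edgeR), and without GH female 71 it was 0.32 with an adjusted p of 0.0174 by edgeR, a call that the full set of mice did not give.

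Slc16a6 moved with choroid plexus RNA. The same GH female 71 had the highest summed choroid plexus markers of all mice, 5027 CPM against 882 to 3107 in the other GH females. Over 30 mice, with group means subtracted, log2 CPM of Slc16a6 had a correlation of 0.73 with the mean log2 CPM of the 10 choroid plexus markers, and of 0.77 over the 27 mice without SI males 25, 33 and 39. With this mean as a covariate, an alternative chosen after seeing the data, the Log2FC in females was 0.14 (SE 0.0718, adjusted p = 0.316 by edgeR). In SI females the marker sum ran from 1595 to 4062 CPM, and the median Log2FC of the 10 markers was 0.22 with 0 called.

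Slc16a7 lay between 14.9 and 22.9 CPM in GH females (median 19.9) and between 18.98 and 23.4 in SI females (median 20.3). Its Log2FC was 0.15 (SE 0.0668, adjusted p = 0.223 by edgeR), and the groups overlapped, with 1 SI female above the highest GH female. It was at 0.048 without GH female 46. The other 5 members differed less between female groups. Slc2a8 was at -0.082 (SE 0.0531, adjusted p = 0.416 by edgeR), and Slc2a1, Slc2a3, Slc2a13 and Slc16a1 were between -0.032 and 0.032, with adjusted p from 0.700 to 0.946 by edgeR. Slc2a1 ranged from 85.5 to 112 CPM in GH females and from 78.8 to 112 in SI females, Slc16a1 from 35.1 to 43.5 and from 35.9 to 45.9, and these groups lay over each other. Over the 9 members, 7 had a fitted value above 0, beside 52.8% of all genes. The 9 had a median of 0.030, and all genes one of 0.0077. Slc2a6 and Slc16a11, which chose the set, are both among the 7, so the count is a description and supports nothing.

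In males 0 of the 7 members were DEGs, where 0 (0%) of 15833 genes were. By DESeq2, again with surrogate variables, 44 genes in males were called and 0 of the 7. An unadjusted p under 0.05 was found for 1 of the 7, Slc2a8, and for 13.0% of all genes.

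Slc2a8, which encodes GLUT8 of intracellular membranes, lay between 13.9 and 18.05 CPM in GH males (median 15.8) and between 14.2 and 21.1 in SI males (median 18.3). Of the 7 SI males 4 exceeded every GH male, and 3 of these were the mice that stood apart. The Log2FC was 0.18 (SE 0.0716, adjusted p = 0.340 by edgeR). It was 0.050 without SI males 25, 33 and 39 (SE 0.0681), and it passed the threshold without SI male 27, at 0.23 with an adjusted p of 0.0345 by edgeR.

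Slc16a6 had nearly the same fitted Log2FC in males as in females, 0.18 (SE 0.099, adjusted p = 0.446 by edgeR), with overlapping groups at 5.32 to 10.1 CPM in GH and 5.81 to 9.61 in SI. Slc16a1 was at -0.098 (SE 0.0725) and Slc16a7 at -0.092 (SE 0.108). Slc2a13 at -0.073, Slc2a3 at -0.010 and Slc2a1 at 0.018 made up the rest, and the adjusted p of these 5 genes was from 0.557 to 0.956 by edgeR. With the position digit in the model Slc2a13, Slc2a3 and Slc16a7 were at -0.30, -0.23 and -0.25, with adjusted p from 0.409 to 0.428 by edgeR.

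**Figure D3:**
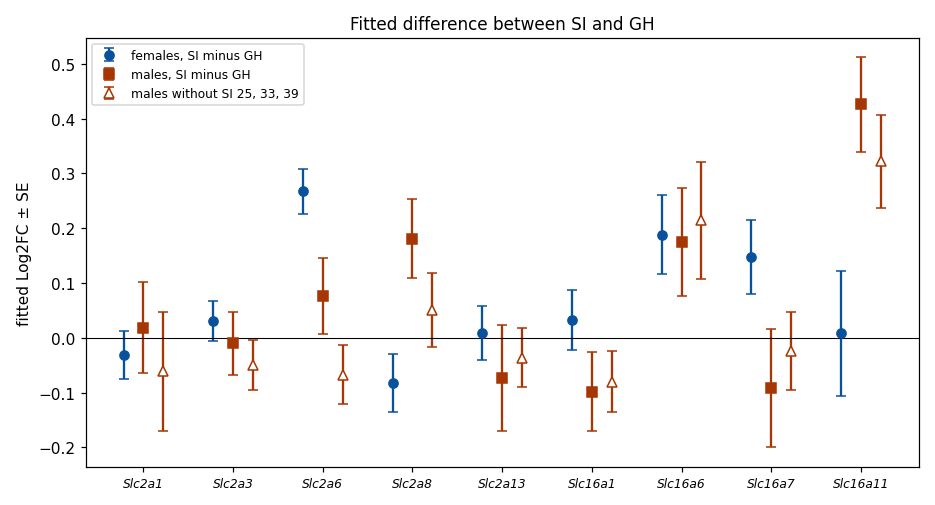
Fitted Log2FC of SI minus GH with its standard error for each member in females, in males and in males without SI males 25, 33 and 39. Slc2a6 in females at 0.27 and Slc16a11 in males at 0.43 chose the set, and Slc2a6 in males moves from 0.076 to -0.068 without the 3 mice.

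Whether the housing difference itself differed between the sexes was tested with an interaction term, all 30 mice being fitted together. It was called for 0 of the 7 members and for 0 (0%) of 16391 genes, with DESeq2 calling 8 of all genes. An unadjusted p under 0.05 was found for Slc2a8 alone among the 7, at 0.20 (SE 0.0927, adjusted p = 0.661 by edgeR), against 7.49% of all genes.

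Between GH males and GH females, 0 of the 7 members were called, where 6.39% of genes were. Slc2a3 came nearest, with GH females between 87.4 and 102.1 CPM (median 90.5) and GH males between 86.1 and 114.1 (median 105.8). Of the 8 GH males, 6 were above the highest GH female. The Log2FC was 0.15 (SE 0.0488, adjusted p = 0.059 by edgeR), and it was called in some alternatives, by DESeq2, with the length and GC trend removed, and without GH female 46, GH male 15 or GH male 24, with adjusted p from 0.0119 to 0.0486 by edgeR and DESeq2. With the 15 GH mice alone it was 0.058.

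Slc2a3, Slc2a13 and Slc16a7, which are all placed in neurons, varied together from mouse to mouse. After group means were subtracted, the correlation of log2 CPM over 30 mice was 0.90 between Slc2a13 and Slc16a7, 0.86 between Slc2a3 and Slc2a13 and 0.67 between Slc2a3 and Slc16a7. Over the 27 mice without SI males 25, 33 and 39 these were 0.87, 0.74 and 0.51. The points share a library and its depth, and the values are a description across mice.

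The same 3 genes followed the length trend of the library. This is the slope on transcript length of log2 CPM relative to each gene's mean over the mice of that sex. Their correlation with it was 0.90 for Slc2a3, 0.93 for Slc2a13 and 0.81 for Slc16a7 over 30 mice and 0.70, 0.94 and 0.84 over 27. Their longest transcripts have 6253, 6541 and 3787 bases, against a median of 3089.5 over genes with a length. Slc16a1 and Slc16a6, at 4426 and 4219 bases, are longer than Slc16a7 but did not follow the trend as closely. Their correlations with it were 0.026 and 0.099 over 30 mice and -0.017 and 0.29 over 27. In SI males 25, 33 and 39 Slc2a3 was at 67.4 to 70.95 CPM, Slc2a13 at 42.5 to 43.9 and Slc16a7 at 13.3 to 15.7, in each case below the lowest GH male. The other 4 SI males lay at 94.9 to 126.2, 55.2 to 93.1 and 15.2 to 25.8 CPM.

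The neuron markers had correlations of 0.89 with Slc2a3, 0.82 with Slc2a13 and 0.65 with Slc16a7 over 30 mice. Over 27 these were 0.82, 0.70 and 0.50. The microglia markers went the other way, with -0.89, -0.90 and -0.74 over 30 mice and -0.70, -0.86 and -0.69 over 27. The part of cell content and of the length trend in these levels was not tested. With each library's length and GC trend removed, the male Log2FC of Slc2a3 and Slc2a13 turned to 0.064 and 0.026, neither past the threshold. That of Slc16a7 kept its sign.

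**Figure D4:**
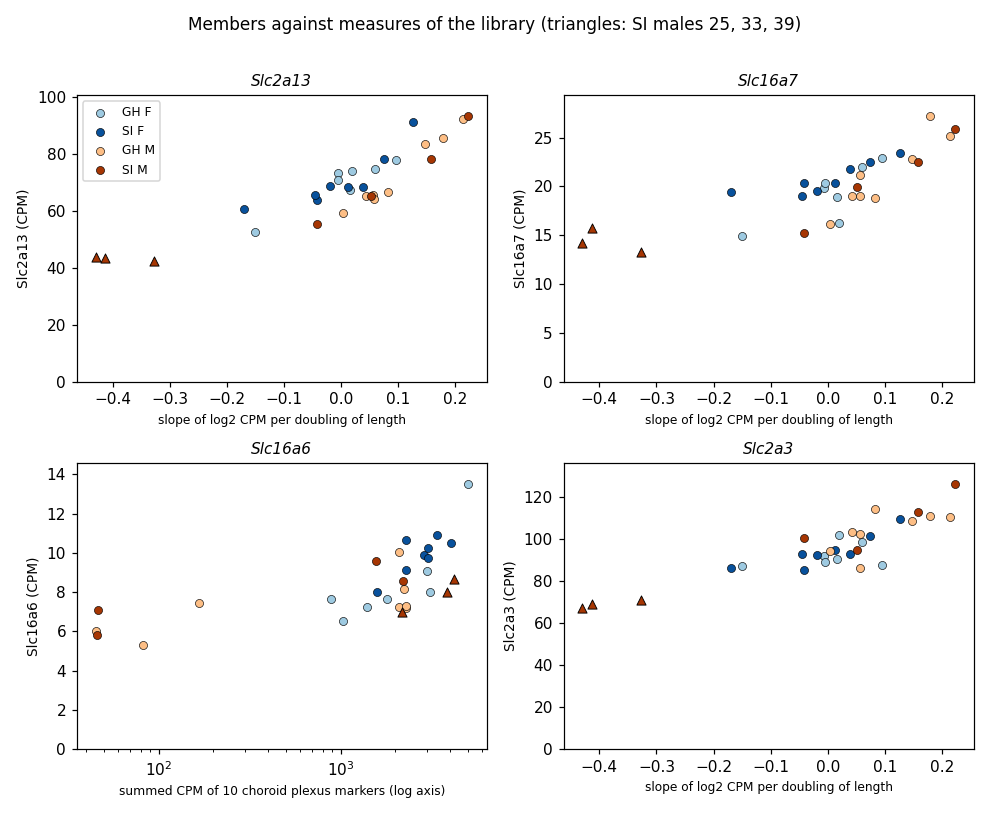
Level in CPM of Slc2a13, Slc16a7 and Slc2a3 in each mouse against the length slope of its library, and of Slc16a6 against choroid plexus markers. The slope is that of log2 CPM, relative to each gene's mean over the mice of that sex, per doubling of transcript length. The 10 markers are given as summed CPM (log axis), with SI males 25, 33 and 39 as triangles. The 3 triangles sit at slopes of -0.33 to -0.43 with the lowest levels of Slc2a13, and GH female 71 sits at the top right for Slc16a6.

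Slc2a8 and Slc16a11 rose and fell together, with a correlation of 0.69 over 30 mice and 0.67 over 27, and both have short transcripts (2108 and 1938 bases) with a high GC content (61.4% and 62.3%, against a median of 50.5%). Slc16a11 had negative correlations with Slc16a7 (-0.52), Slc16a1 (-0.42) and Slc2a13 (-0.41). Slc16a1 had its highest marker correlation with endothelium, 0.59 over 30 mice and 0.65 over 27, and Slc2a1, also an endothelial carrier, had 0.31 and 0.23. The highest for Slc2a1 was with neuron markers, 0.47 and 0.43, and with astrocyte markers it had -0.49 and -0.51. Slc2a6 and Slc16a11, the genes the set was built on, had 0.15 and 0.06 with each other.

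The genes most like each member, by the correlation of log2 CPM over 30 mice after group means were subtracted and among 15090 genes, differed from member to member. For Slc16a6 they were Lepr (0.93), the leptin receptor, Dab2 (0.92), an endocytic adaptor, and Zfp185 (0.88), and all 3 were also the nearest over 27 mice. For Slc2a13 they were Nbea (0.97), Atf7ip (0.97) and Tmem132b (0.97), for Slc2a3 Mpp2, Clcn7 and Adcy3 (each 0.96), and for Slc16a7 Bmpr2 (0.94), Cnot6l (0.94) and Lrp1b (0.93). Slc16a11 was nearest to Fam116b (0.88), Pcsk4 (0.86) and Lrrc45 (0.82), and Slc2a6 to Frat1 (0.82), Creld1 (0.82) and Prkcsh (0.81). Slc2a8 was nearest to A230050P20Rik (0.84), Gas8 (0.84) and Tada3 (0.83), Slc2a1 to Bhlhe41 (0.82), Pias3 (0.81) and Smtn (0.81), and Slc16a1 to Stom (0.71), Myd88 (0.71) and Tmem45a (0.68). Of these 27 genes, 11 were also among the nearest 3 over 27 mice.

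The other 15 family genes held 0 DEGs between SI and GH in either sex, beside 3.89% of all genes tested in females and 0% in males. Slc16a10, an aromatic amino acid transporter, was at 0.22 in females (SE 0.0955, adjusted p = 0.208 by edgeR), and Slc2a4 was at -0.39 (SE 0.183, adjusted p = 0.245 by edgeR). Slc2a12, Slc16a8, Slc16a9 and Slc16a12 followed the choroid plexus markers, with correlations of 0.93, 0.96, 0.78 and 0.83 over 30 mice. Slc16a9, a carnitine transporter, was lower in GH males than in GH females, at -0.44 (SE 0.113, adjusted p = 0.0239 by edgeR), beside choroid plexus markers with a median of -0.26 and 0 of 10 called. It was the only 1 of the 15 called between GH groups, where 6.39% of all genes were. In GH males 1, 2 and 3 and SI males 7 and 8 the choroid plexus markers summed to 45.03 to 168 CPM, while in the other 10 males they summed to 1562 to 4209.

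The enzymes and regulators around the transporters were followed in 5 lists of 83 genes in all, written from general knowledge with earlier results of these data known. In females 7 were called (8.43% of the lists, beside 3.89% of all genes), each lower in SI. In glycolysis and lactate dehydrogenase, 1 of 17 was called, Aldoc, the astrocytic aldolase, at -0.22 (SE 0.0469, adjusted p = 0.0163 by edgeR), while the list's median was 0.046 and that of all genes 0.0077. In pyruvate entry into mitochondria, 1 of 14 was called, Pdk4, a kinase that inhibits pyruvate dehydrogenase, at -0.30 (SE 0.059, adjusted p = 0.0129 by edgeR), with a list median of -0.015.

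In glycogen turnover 2 of 17 were called, Pygb, the brain glycogen phosphorylase, at -0.18 (SE 0.0423, adjusted p = 0.0242 by edgeR) and Phka1, a subunit of its activating kinase, at -0.20 (SE 0.0422, adjusted p = 0.0176 by edgeR). Only 2 of the 17 had a fitted value above 0, and the list median was -0.12. Among partners and regulators of transport 3 of 29 were called, Txnip, an arrestin that restrains glucose uptake, at -0.18, Epas1, a hypoxia-inducible factor, at -0.27, and Slc4a4, a bicarbonate cotransporter of astrocytes, at -0.25, with adjusted p from 0.0266 to 0.0437 by edgeR. Bsg and Emb, the chaperones of MCT carriers at the membrane, were at 0.096 (adjusted p = 0.232 by edgeR) and 0.12 (adjusted p = 0.339 by edgeR). None of 6 ketone body genes was called.

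Astrocyte markers were also lower in SI females. There 4 of 10, Slc1a2, Slc1a3, Aldh1l1 and S100b, were called lower, beside 3.89% of all genes called. Their list median was -0.21, and all 10 had a fitted value below 0. Microglia and oligodendrocyte markers had medians of -0.082 and -0.077, with 0 and 1 of 10 values above 0 and 0 called. Endothelial and neuron markers each had 9 of 10 values above 0, and choroid plexus markers 10. The endothelial marker Flt1 was called higher, at 0.14 (adjusted p = 0.0496 by edgeR). Of the neuron markers Nefm was called higher, at 0.25 (adjusted p = 0.0339 by edgeR), and Map2 lower, at -0.28 (adjusted p = 0.0220 by edgeR). For choroid plexus markers 0 were called. The 4 astrocyte calls became 0 without surrogate variables or with the position digit, 2 with all mice in 1 fit, 1 without SI female 63 or 68 and 7 without SI female 52. Whether the lower enzymes follow from fewer astrocytes or less RNA per astrocyte was not tested. The 7 calls rested on the model and on single mice, with 0 called without surrogate variables or with a position digit from the labels in the model. There were 0 without SI female 63 or 68, 1 without GH female 54, 2 without GH female 71, 3 without SI female 45, SI female 73 or GH female 48, 11 without SI female 41 or GH female 78, and 15 without GH female 46.

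In males 0 of the 83 genes were called with all mice or without SI males 25, 33 and 39, and 22 were called without SI male 27. The glycolysis list had a median of 0.12 with 15 of 17 values above 0, beside 49.3% of all genes, and 5 of the 17 had an unadjusted p under 0.05, beside 13.0% of all genes. Without SI males 25, 33 and 39 its median was -0.024 with 2 of 17 values above 0, beside 47.7% of all genes, and 1 had an unadjusted p under 0.05, with a value below 0. Between GH males and GH females 12 of the 83 were called (14.5% of the lists, beside 6.39% of all genes), Eno2, the neuronal enolase, higher at 0.24 and 11 lower, 5 of them in glycogen turnover. Phkb, another subunit of phosphorylase kinase, had the smallest adjusted p at -0.35 (SE 0.0597, adjusted p = 0.00195 by edgeR), and Pygm, a glycogen phosphorylase, was at -0.34. Astrocyte markers were again lower, with 3 of 10 called and a median of -0.23. Of 10 each, 2 microglia and 1 oligodendrocyte markers were also called lower, and neuron markers had 4 calls higher and 1 lower. The 3 astrocyte calls became 0 without surrogate variables, 5 without GH female 46, 78 or 79, 6 without GH male 15 and 7 without GH male 24. The 12 became 0 without surrogate variables, 2 without GH male 3, 4 without GH female 47, 5 without GH male 22, 6 without GH male 23 or GH female 71, 7 without GH female 48 or 54, 19 without GH male 15 and 22 without GH male 24.

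**Figure D5:**
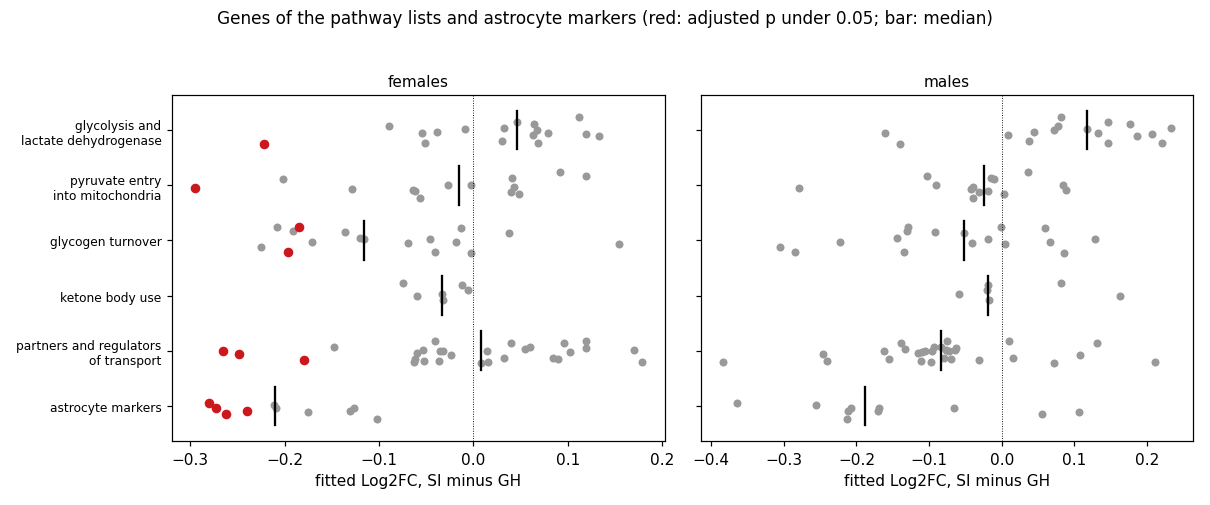
Fitted Log2FC of SI minus GH for each gene of the 5 pathway lists and the astrocyte markers in females and males, with calls at an adjusted p under 0.05 in red and the list median as a bar. In females the 7 pathway calls and the 4 astrocyte calls lie on the lower side, and in males no gene is called.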

How the data were processed

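Poly-A RNA of the hippocampus of 30 mice was sequenced, 1 library per mouse. According to the submitters' processing notes, Trimmomatic 0.39, Salmon 1.8.0 and DESeq2 1.24.0 were used with GRCm39, and the authors deposited whole-number counts per gene, without normalization. How Salmon's estimates became whole counts is not given in the sources used here, nor whether counting used strand. All columns matched a mouse by name. Replicate pairs within groups differed by more than sampling noise (lowest chi-square over its degrees of freedom 8.71).

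Groups were taken from the labels. Symbols (16439 genes, 94.1%), lengths and GC content were those of GENCODE vM1 on NCBIM37. In R 4.3.3, genes passed filterByExpr (minimum count 10, minimum total count 15) of edgeR 4.0.16, libraries were scaled by TMM, and surrogate variables (3 in females, 2 in males, 4 for all mice) came from svaseq of sva 3.50.0 (20 permutations, seed 1). The test was that of glmQLFit and glmQLFTest, adjusted by Benjamini-Hochberg over all genes, and DEGs had an adjusted p under 0.05. All 9 members passed the filter in every fit. A Log2FC is the fitted difference, and correlations used log2 CPM with a prior count of 2. The named genes were the members, their families, genes of each list called between SI and GH and the 3 genes nearest each member. Bsg, Emb, Eno2, Phkb, Pygm and single markers were named after their values were seen. Some results are not reported here. The members and lists were chosen with earlier results of these data known. The steps were tested on simulated data. Alternatives were DESeq2 1.42.0, other scaling, filters and covariates, the lowess removal (span 0.3) of length and GC trends, and fits without single mice. Fits without single mice kept the number of surrogate variables, while the male fit without SI males 25, 33 and 39 estimated its own, 4.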

Additional observations from a re-analysis of the deposited data

Results flagged for a closer look

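In 36 groups of 7 or 8 mice, formed by the 9 members, 3 held a mouse set apart from its nearest neighbour. The gap passed the 95% critical value of Dixon's test, which chance gives in about 1 of 20 single groups. The groups share mice and include those of Slc2a6 and Slc16a11, which chose the set, so the count is a description. Slc16a6 in GH females had its highest mouse, animal 71, at 13.5 CPM, with the next at 9.10, a gap of 0.633 of the range. Slc2a13 in GH females had its lowest mouse, animal 78, at 52.5 CPM, with the next at 67.2, a gap of 0.579 of the range, and its library had the lowest length slope of the GH females, -0.15. Slc16a11 in GH males had its highest mouse, animal 15, at 16.1 CPM, with the next at 12.4, a gap of 0.618 of the range. Its values in males were used to choose the set, so this flag supports nothing.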

How the results depend on the processing

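Over 665 values of a member under an alternative, 74 changed sign, and 7 kept direction and newly passed the threshold. The other 584 kept direction, and for the tested members also the side of the threshold. Slc2a6 and Slc16a11 had no threshold, and their values among the 584 moved by less than the SD within groups. Slc2a6 in males changed sign without SI males 25, 33 and 39 (-0.068) or without SI 38 (-0.030). The cause was not tested for any change. The counts of DEGs were unstable. In females 624 became 0 without surrogate variables or with the position digit, 1263 by DESeq2, 401 by DESeq2 without surrogate variables, and 88 to 1374 with single mice left out. In males 0 became 44 by DESeq2, 304 by DESeq2 without surrogate variables, 1 without SI males 25, 33 and 39, and 0 to 2413 with single mice left out. Between GH males and GH females 1047 became 16 without surrogate variables, 1942 by DESeq2, 646 without the filter, 187 with GH mice alone, and 117 to 2660 with single mice left out. The interaction gave 8 by DESeq2. Pathway calls in females, 7, became 14 by DESeq2, 4 by DESeq2 without surrogate variables, 11 with the trend removed, 0 without surrogate variables or with the position digit, and 0 to 15 with single mice left out. In males they were 5 by DESeq2 without surrogate variables and 0 to 22 with single mice left out, and between GH groups 0 without surrogate variables, 19 by DESeq2, 4 with GH mice alone and 2 to 22 with single mice left out. With mean transcript length 6 of 9 members kept their rank, and 11 of 27 nearest genes recurred over 27 mice.

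In males Slc2a1 was at -0.068 without surrogate variables, -0.056 by DESeq2 without them, -0.014 with all mice in 1 fit, -0.039 with the trend removed, -0.078 with the position digit and -0.061 without SI males 25, 33 and 39. With all mice in 1 fit Slc2a3, Slc2a13 and Slc16a7 were at 0.0245, 0.031 and 0.025 in males, and with the trend removed Slc2a3 and Slc2a13 were at 0.064 and 0.026. Slc2a13 in females was at -0.016 with the choroid plexus covariate. Between GH groups Slc2a1 was at -0.0135 without surrogate variables, Slc16a6 at 0.012 without the filter and Slc16a1 at 0.0052 with the trend removed. In the interaction Slc2a1 and Slc2a13 were at -0.060 and -0.29 without surrogate variables, Slc16a6 at 0.076 without the filter, and Slc2a13 and Slc16a6 at -0.039 and 0.043 without SI males 25, 33 and 39. With single mice left out, females gave -0.058 to 0.0041 for Slc2a1, -0.0049 to 0.048 for Slc2a3, -0.028 to 0.033 for Slc2a13 and -0.022 to 0.063 for Slc16a1. Males gave -0.019 to 0.061 for Slc2a1, -0.089 to 0.037 for Slc2a3, -0.21 to 0.054 for Slc2a13 and -0.21 to 0.030 for Slc16a7. Between GH groups the ranges were -0.0125 to 0.089 for Slc2a1, -0.042 to 0.062 for Slc2a8, -0.040 to 0.094 for Slc2a13, -0.053 to 0.022 for Slc16a1, -0.16 to 0.067 for Slc16a6 and -0.0054 to 0.15 for Slc16a7. Slc16a11 was at -0.065 to 0.15 in females and -0.033 to 0.20 between GH groups with single mice left out, and between GH groups at -0.024 without surrogate variables and -0.0099 with the trend removed. No paired analysis was possible because the groups share no replicate numbers.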
